A study of Mus musculus with 8 samples.

Results

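The genes described here encode the potassium, sodium, calcium and hyperpolarisation-activated channels that shape the cardiac action potential. They were chosen by symbol alone: every gene of the count table whose symbol began with Kcn and a letter, the Scn genes of alpha and beta subunits, the Cacna, Cacnb and Cacng genes, and the Hcn genes. There were 122 of them among 17190 genes. The hearts came from male mice fed standard chow, 4 wild-type and 4 Gpihbp1 knockout (Gpihbp1-/-); age, strain and the allele are not given in the labels. Wild-type hearts carry the numbers 2, 4, 5 and 6 of the sample titles and knockout hearts 1, 2, 3 and 4, and values are listed in that order throughout. The series compared the genotypes to see what Gpihbp1 deficiency does to the heart. GPIHBP1 carries lipoprotein lipase to the capillary lumen, where triglyceride of the blood is broken down, and without it chylomicrons accumulate.

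A cardiac action potential begins when voltage-gated sodium channels open. L-type calcium channels then carry the current that triggers contraction, and voltage-gated (Kv) and inwardly rectifying potassium channels bring the membrane back to rest. Tandem-pore potassium channels leak at rest, pacemaker (HCN) channels open on hyperpolarisation, and auxiliary subunits set how many channels reach the membrane and how they gate. In mice the repolarising current comes mainly from fast transient and slowly inactivating Kv channels, whereas larger mammals rely more on the delayed rectifiers of Kcnh2 and Kcnq1.

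The targeted gene matched the labels: Gpihbp1 had 833 to 1951 reads in the wild-type hearts and 0, 0, 1 and 0 in the knockout hearts. Library totals ran from 9065553 to 13492957 estimated reads. Cardiomyocyte genes were abundant in every heart: the 10 markers of working cardiomyocytes summed to between 30271 and 84883 CPM (reads per library of a standard size, scaled by TMM, which corrects for composition). Wild-type 2 and knockout 2 stood apart. Their fibroblast and matrix markers summed to 10167 and 12389 CPM against 996 to 1258 in the other hearts. Their macrophage markers summed to 4182 and 2814 CPM against 409 to 718. Their cardiomyocyte markers summed to 30271 and 30350 CPM against at least 48195. The pair was the lowest 2 hearts for 7 of these 10 cardiomyocyte markers, but not for all. Wild-type 6 had atrial myosin light chains at 974 CPM for Myl4 and 427 CPM for Myl7, where no other heart had more than 2.45 CPM of the former or 0.489 of the latter. Wild-type 6 also had the highest sum of listed ventricular markers, 49194 CPM against 6302 to 20755, though it led for only 2 of 6. It was the highest heart for 6 of 9 listed atrial markers, but not for all. Those it led include Bmp10, which had 2 reads over all hearts. Nr2f1 was lowest there, at 0.703 CPM. Nppa, at 3262 CPM, was similar in wild-type 2 (3132 CPM) and higher in knockout 2 (4467 CPM). These 3 hearts fell on both sides of the comparison, 2 in the wild-type group and 1 in the knockout group, and results that rest on them are also given without them. In bulk tissue, fewer cells of a type and less RNA per cell cannot be told apart.

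No channel gene passed the test between genotypes. Of the 122 members, 68 had enough reads to be tested and 0 had an adjusted p under 0.05 (edgeR's quasi-likelihood test, Benjamini-Hochberg over 12826 genes), against 0.0312% of all genes tested. DESeq2 also called 0 members. At an unadjusted p under 0.05 there was 1 member, Kcnk2, against 0.904% of all genes. Kcnk2 was also the 1 tested member whose groups did not overlap in TMM-scaled CPM, against 0.632% of all genes tested, and it was lower in the knockout hearts. Among the untested members, Kcns3 and Kcnh6 did not overlap in CPM in the other direction. Kcns3 had 1 to 4 reads in the wild-type hearts and 4 to 18 in the knockout hearts. Its nearest values, 0.380 and 0.392 CPM, both rest on 4 reads. Kcnh6 had 1 to 3 reads against 5 to 7. Both genes were picked out after their values were seen, and the share over all untested genes is not given. Fitted log2 fold changes (knockout minus wild-type) were positive for 34 members and negative for 34, with a median of -0.02, the same as over all genes tested. The precision was low. The median standard error was 0.49 for the members and 0.33 for all genes, and the 95% interval lay within a 2-fold change either way for 12 of 68 members (17.6%) against 55.7% of all genes. For most members the interval thus included a change of 2-fold, and a difference of that size was not detectable at this depth and spread.

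**Figure D1:**
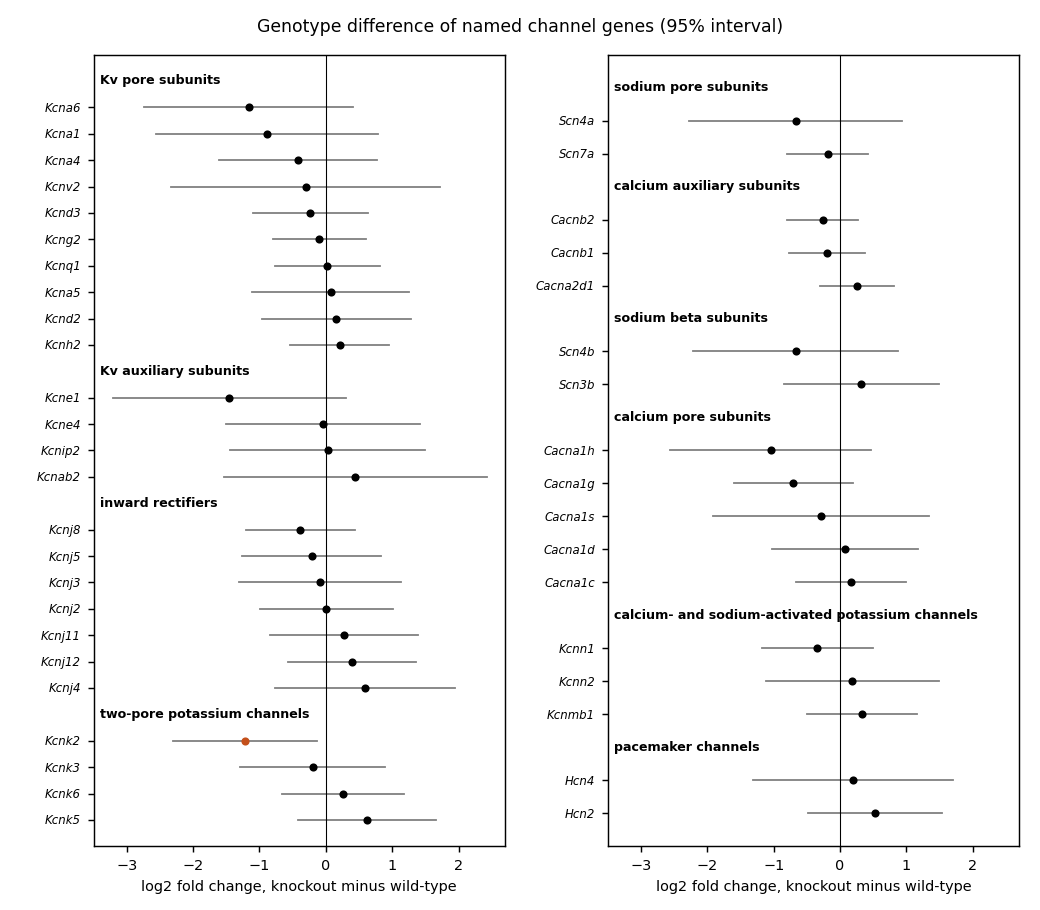
Log2 fold change (knockout minus wild-type) of the 42 tested channel genes named by rule, by class, as points with 95% intervals from edgeR (4 against 4 hearts); the coloured gene has an unadjusted p under 0.05. The interval of Kcnk2 ends below 0 and the intervals of the other genes shown cross it.

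Kcnk2 encodes TREK-1, a tandem-pore leak channel opened by stretch, arachidonic acid and heat. Its level was 11.7, 3.99, 3.49 and 5.62 CPM in the wild-type hearts, and 3.01, 3.35, 1.17 and 3.11 CPM in the knockout hearts. On TMM-scaled CPM every knockout heart lay below every wild-type heart, but 3.49 and 3.35 CPM, the nearest values, differed by little. The separation depends on that scaling. Knockout 2 had 51 of 13443527 reads and wild-type 5 had 40 of 11477297. By library totals alone, knockout 2 thus lay above wild-type 5. Wild-type 2 was far above the rest. The log2 fold change was -1.22 (SE 0.48, 95% interval -2.31 to -0.13), with an unadjusted p of 0.0319 and an adjusted p of 0.99998 in edgeR's test. In reads this was 168, 42, 40 and 40 against 34, 51, 12 and 33. Without wild-type 2 the log2 fold change was -0.70 (edgeR unadjusted p = 0.139), and without wild-type 2 and knockout 2 it was -0.82 (edgeR unadjusted p = 0.0863). Leaving out wild-type 6 as well gave -0.61 (edgeR unadjusted p = 0.208). The unadjusted edgeR p also rose above 0.05 without knockout 1 (0.0532), without knockout 3 (0.0771) and when scaled by library totals alone (0.0687). The high value fell in a heart with raised fibroblast and macrophage markers, but knockout 2, with similar marker sums, had 3.35 CPM; the part of those cells in the result was not tested.

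RefSeq lists 4 transcript starts for Kcnk2 in the mouse (assembly GRCm38.p6), and the windows of 300 bases around 2 of them, 250 bases before and 50 after the start, held one of the searched motifs. They are shown because Kcnk2 was the 1 tested member with an unadjusted p under 0.05 in edgeR's test. It did not pass the adjusted threshold. Capitals mark a GATA site in the first (GATAAG, plus strand, 217 bases before the start) and a GC box in the second (GGGCGG, plus strand, 173 bases before it). The first lies at chr1:189402224-189402523 and the second at chr1:189343658-189343957, both read on the minus strand.
Kcnk2, distal start: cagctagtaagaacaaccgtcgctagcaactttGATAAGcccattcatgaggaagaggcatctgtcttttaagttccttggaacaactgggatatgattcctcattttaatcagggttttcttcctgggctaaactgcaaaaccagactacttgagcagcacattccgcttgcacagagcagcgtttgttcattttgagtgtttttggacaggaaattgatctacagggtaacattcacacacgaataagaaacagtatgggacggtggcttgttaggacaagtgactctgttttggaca
Kcnk2, internal start: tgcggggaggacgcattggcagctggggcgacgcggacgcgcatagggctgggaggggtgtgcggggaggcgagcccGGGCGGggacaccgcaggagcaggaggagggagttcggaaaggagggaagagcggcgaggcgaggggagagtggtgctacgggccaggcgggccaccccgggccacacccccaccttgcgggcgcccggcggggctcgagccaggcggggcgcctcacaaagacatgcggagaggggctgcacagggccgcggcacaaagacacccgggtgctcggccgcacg
On both strands of 124 windows, which belonged to 89 of the 122 members, the GC box was found in 48.4%, against 35.7% of all 32851 windows of the table. The GATA site was in 6.45% of the channel windows and 7.44% of all. A TATA box, searched as TATAAA, was in 4.84% and 13.6%. The nuclear receptor site AGGTCA was in 8.06% and 16.3%. None of these motifs shares letters with another in the windows shown. The median GC content was 59.5% for channel genes and 52.7% for all windows. A match is a description of letters, not of binding.

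By level, potassium channel genes made up most of the channel transcripts. On the deposited TPM, an abundance corrected for transcript length, Kv pore subunits held 20.5% of the summed channel TPM (mean of 8 hearts), Kv auxiliary subunits 19.4%, inward rectifiers 15.4% and tandem-pore channels 13.1%. Sodium pore subunits held 9.76%, calcium auxiliary subunits 8.15%, sodium beta subunits 5.34% and calcium pore subunits 4.15%. Calcium- and sodium-activated potassium channels held 2.65% and pacemaker channels 1.51%. A mean of 1 TPM was reached by 49 members and of 10 TPM by 17, while 33 had at most 5 reads in any heart. The order of levels within a class is given on TPM. Levels in one heart are not compared with those in another on that scale, since in wild-type 6 the channel TPM was low (505) and the channel CPM was not (3030).

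**Figure D2:**
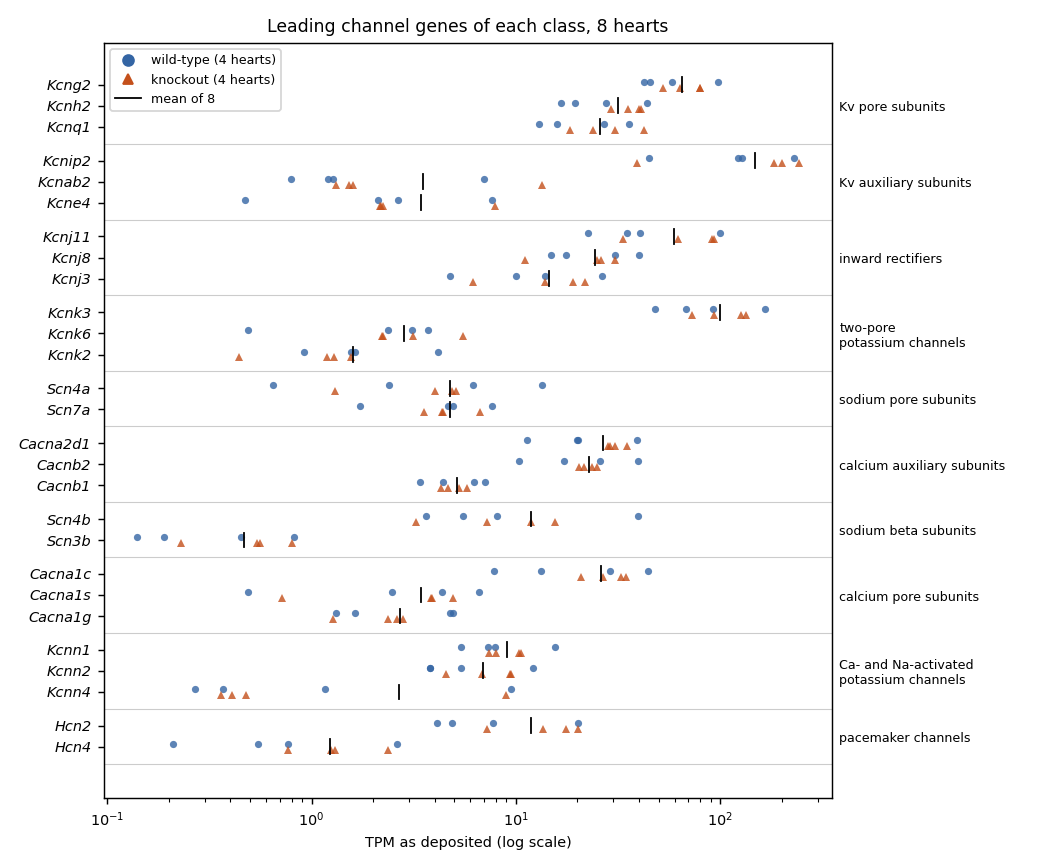
Deposited TPM (log scale) of leading channel genes in each class, one point for each of 8 hearts, with the mean as a bar. Kcnip2 and Kcnk3 have the highest means, 149 and 100 TPM, and the points of the genotypes overlap for every gene shown.

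Among the Kv pore subunits, Kcng2, a silent subunit that acts through other Kv pores, was highest at 65.0 ± 19.3 TPM (SD, n = 8). Kcnh2 (31.8 ± 10.2 TPM) and Kcnq1 (25.9 ± 10.1 TPM), the rapid and slow delayed rectifiers, followed, then Kcna5 (18.0 ± 10.8 TPM), an ultrarapid delayed rectifier. Kcng2 was above Kcnh2 in 8 of 8 hearts, but Kcnh2 and Kcnq1 kept their order in only 6 of 8. Kcnd3 and Kcnd2, pores of the fast transient current, were at 2.84 and 2.76 TPM, and Kcna4, pore of the slow transient current, at 0.221 TPM. The genotype difference of Kcnd2 was small beside its error: 9.47, 5.99, 22.9 and 8.43 CPM in the wild-type hearts and 9.20, 5.78, 18.6 and 18.8 CPM in the knockout hearts gave a log2 fold change of 0.16 (SE 0.50). Kcnd3 gave -0.23 (SE 0.39), Kcna5 0.07 (SE 0.53), Kcnh2 0.21 (SE 0.33) and Kcnq1 0.02 (SE 0.35). The largest negative value in the class was that of Kcna6 (-1.16, SE 0.70, edgeR unadjusted p = 0.131), and Kcna1 gave -0.89 (SE 0.74). Both are Shaker-type genes known from axons. Wild-type 4 held their highest values, 6.08 CPM for Kcna6 and 12.0 for Kcna1, with 9.22 for the related Kcna2. Without wild-type 4 the log2 fold change was -0.25 for Kcna6 and -0.05 for Kcna1. Without wild-type 2 and knockout 2 it was -1.27 (edgeR unadjusted p = 0.0670) for Kcna6 and -0.84 (edgeR unadjusted p = 0.161) for Kcna1, and without wild-type 6 as well -1.65 (edgeR unadjusted p = 0.00981) and -1.20 (edgeR unadjusted p = 0.0303). That last fit holds only wild-type 4 and 5 on the wild-type side, so it leans more on the high values of wild-type 4. Wild-type 4 also had the highest level of 9 of 10 endothelial markers and of 6 of 12 Schwann cell and neuron markers. The summed Schwann cell and neuron markers were highest in knockout 2, at 68.3 CPM against 66.2 in wild-type 4. Of those 12 markers, 5 had no reads in at least 1 heart. The part of these cells in the result was not tested.

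Kcnip2, the calcium-binding partner that brings Kcnd pores to the membrane, was the most abundant channel gene, at 149 ± 78.8 TPM and 86.5% of its class. Its range did not overlap that of the next auxiliary gene, Kcnab2 (3.52 TPM). It did not separate the genotypes, with 70.8, 169, 332 and 421 CPM in the wild-type hearts and 261, 51.6, 326 and 371 CPM in the knockout hearts (log2 fold change 0.03, SE 0.65). The lowest values were those of wild-type 2 and knockout 2. Kcne1, the regulatory subunit that slows Kcnq1, had the largest negative log2 fold change of all members, -1.45 (SE 0.78, edgeR unadjusted p = 0.0935). It rested on wild-type 6: that heart had 19.0 CPM, where the other wild-type hearts had 2.16, 2.0 and 3.41 and the knockout hearts 2.74, 1.12, 1.76 and 3.96. Without wild-type 6 the log2 fold change was -0.09. Kcnab2, a beta subunit of the Shaker family, had 19.9 CPM in wild-type 2 and 30.5 in knockout 2 and between 2.79 and 4.92 in the others, and Kcne4 showed the same pattern, with 14.8 and 12.1 CPM against 1.97 to 4.11.

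Of the inward rectifiers, Kcnj11, the pore of the ATP-sensitive channel, was highest at 59.7 ± 31.1 TPM, and Kcnj8, its vascular counterpart, followed at 24.6 ± 9.57 TPM. Kcnj3 (14.5 TPM) and Kcnj5 (13.8 TPM), which together form the acetylcholine-activated channel, each exceeded the other in 4 of 8 hearts. Kcnj12 (8.62 TPM) and Kcnj2 (7.36 TPM) form the classical inward rectifier that holds the resting potential. None of the 9 tested members had an unadjusted p below 0.315. Kcnj2 had 16.2, 19.96, 60.1 and 26.7 CPM in the wild-type hearts and 33.3, 16.5, 45.4 and 28.3 in the knockout hearts, a log2 fold change of 0.00 (SE 0.45). Kcnj12 gave 0.39 (SE 0.43), Kcnj11 0.28 (SE 0.50) and Kcnj8 -0.39 (SE 0.37). The largest positive value of the class was that of the weakly expressed Kcnj4 (0.59, SE 0.60).

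Kcnk3, the TASK-1 leak channel, supplied 92.2% of the tandem-pore TPM, at 100 ± 39.2 TPM (SD, n = 8), and its range did not overlap that of Kcnk6 (2.85 TPM). The wild-type hearts had 147, 184, 407 and 609 CPM and the knockout hearts 254, 175, 379 and 366 CPM (log2 fold change -0.20, SE 0.49). The highest value was in wild-type 6 and the lowest in wild-type 2, so both ends of the range were wild-type. Kcnk5, an acid-sensitive leak channel present near 1 CPM, gave a log2 fold change of 0.62 (SE 0.46) and did not pass the test. Kcnk13, a leak channel with up to 115 reads, was not tested because too few hearts reached the count minimum. It had 7.04 and 7.55 CPM in wild-type 2 and knockout 2 and 0.475 to 1.26 in the others.

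In the calcium-activated class, the small-conductance genes Kcnn1 (9.06 TPM) and Kcnn2 (6.91 TPM) were highest. Kcnn2 had 4.11, 5.70, 23.0 and 7.31 CPM in the wild-type hearts and 7.34, 5.58, 15.6 and 17.2 CPM in the knockout hearts, a log2 fold change of 0.19 (SE 0.58). The BK pore Kcnma1 had 0 to 5 reads a heart, although its smooth muscle subunit Kcnmb1 had 21 to 45. Kcnn4, the intermediate-conductance channel known from blood and connective tissue cells, was also untested, with up to 201 reads. It had 14 CPM in wild-type 2 and 10.5 in knockout 2 and from 0.437 to 1.52 in the other hearts.

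Among the sodium channel genes, Scn4a, the skeletal muscle channel, and Scn7a, known from glia and sensory neurons, averaged 4.75 and 4.74 TPM and each led in 4 of 8 hearts. The log2 fold change was -0.67 (SE 0.71) for Scn4a and -0.19 (SE 0.27) for Scn7a. Scn4b, a beta subunit that raises resurgent current, was at 11.8 ± 11.9 TPM. It had 14.1, 27.7, 123 and 46.2 CPM in the wild-type hearts and 24.8, 9.84, 44.7 and 53.5 CPM in the knockout hearts. Its log2 fold change of -0.67 (SE 0.69) turned to 0.18 without wild-type 5, the heart with 123 CPM.

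Cacna1c, the cardiac L-type pore, held 73.4% of the calcium pore TPM at 26.1 ± 11.9 TPM, and its range did not overlap that of Cacna1s. Cacna2d1 (26.7 TPM) and Cacnb2 (22.9 TPM), which bring that pore to the membrane, led the auxiliary subunits. The log2 fold changes of the 3 genes were 0.16 (SE 0.37), 0.25 (SE 0.25) and -0.26 (SE 0.24). The T-type pores, which open at low voltage in nodal and embryonic heart cells, gave the most negative log2 fold changes of the class. Cacna1g had 7.80, 26.1, 23.7 and 20.9 CPM in the wild-type hearts and 12.4, 6.43, 15.2 and 14.2 CPM in the knockout hearts. Apart from wild-type 2, each wild-type heart was above each knockout heart. Its log2 fold change was -0.70 (SE 0.40, edgeR unadjusted p = 0.110) in all 8 hearts and -0.97 (edgeR unadjusted p = 0.0117) without wild-type 2. Without knockout 2 instead it was -0.50 (edgeR unadjusted p = 0.232), without both hearts -0.76 (edgeR unadjusted p = 0.00886), and without wild-type 6 as well -0.84 (edgeR unadjusted p = 0.00242). Cacna1h had 2.30, 17.2, 19.4 and 15.04 CPM against 12.0, 5.51, 6.85 and 1.7 CPM. It gave -1.04 (SE 0.68, edgeR unadjusted p = 0.155) in all hearts and -1.40 (edgeR unadjusted p = 0.0230) without wild-type 2. Without knockout 2 instead it was -0.96 (edgeR unadjusted p = 0.232), without both hearts -1.32 (edgeR unadjusted p = 0.0413), and without wild-type 6 as well -1.41 (edgeR unadjusted p = 0.0564). Neither gene passed the adjusted threshold in any of these fits. The fit without all 3 hearts holds only wild-type 4 and 5 against knockout 1, 3 and 4. How many of all genes reach such p-values in the reduced fits is not given. They are therefore not read as stronger evidence than the test of all 8 hearts.

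Hcn2 accounted for 88.2% of the pacemaker TPM, at 11.9 ± 6.78 TPM, and did not overlap Hcn4 (1.23 TPM), the main sinus node isoform. Hcn2 had 12.3, 17.3, 41.0 and 22.5 CPM in the wild-type hearts and 30.4, 14.4, 49.5 and 39.8 in the knockout hearts. The log2 fold change of 0.53 (SE 0.45, 95% interval -0.48 to 1.53) did not pass the test. Hcn4 gave 0.20 (SE 0.67).

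**Figure D3:**
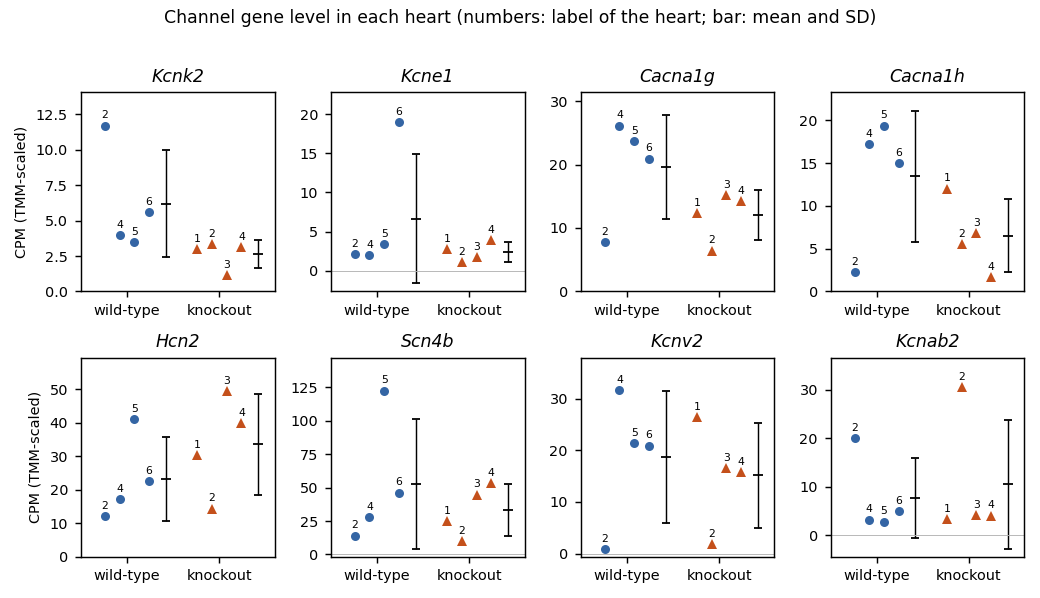
TMM-scaled CPM of 8 channel genes in each of 8 hearts, with group means. Kcnk2 is the 1 gene shown whose groups do not overlap; the high Kcne1 value (19.0 CPM) is wild-type 6, and the high Kcnab2 values (19.9 and 30.5 CPM) are wild-type 2 and knockout 2.

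Many channel genes set the same pair of hearts apart. Wild-type 2 and knockout 2 were the lowest 2 of 8 hearts for 32 of 68 tested channel genes (47.1%), against 16.4% of all genes tested. They were the highest 2 for 8 (11.8%), against 22.2% of all genes. The low group held Kcnv2, a silent Kv subunit, at 0.906 and 1.84 CPM against 15.7 to 31.6 in the other hearts, and Cacna1s at 2.58 and 2.95 CPM against 17.9 to 27.8. Scn4a was at 4.39 and 6.96 CPM against 24.3 to 73.7, and Kcnip2 at 70.8 and 51.6 CPM against 169 to 421. The high genes included Cacna1d, Cacng7, Kcnab2, Kcnd1, Kcne4, Kcnj14 and Kcnk6. Kcnd1 stood at 7.52 and 7.55 CPM and was between 1.13 and 2.95 elsewhere. The summed cardiomyocyte markers were low in the same hearts. The CPM was therefore also divided by the summed CPM of those 10 markers, a scale chosen after the data were seen. On it the pair was lowest for 7 members (Cacna1s, Cacna2d2, Kcnc1, Kcnip2, Kcnj3, Kcnv2 and Scn4a) and highest for 22. This scale raises every gene in those hearts alike, because their marker sums were low, so the shares are read against all genes tested. The pair was lowest for 10.3% of the channel genes and 0.819% of all genes, and highest for 32.4% and 71.2%. Kcnip2 gave 2.34 and 1.7 per 1000 marker CPM against 3.5 to 5.06, and Kcnq1 gave 1.85 and 2.36 against 0.497 to 0.842. Both patterns are descriptions of 2 hearts of different genotype.

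**Figure D4:**
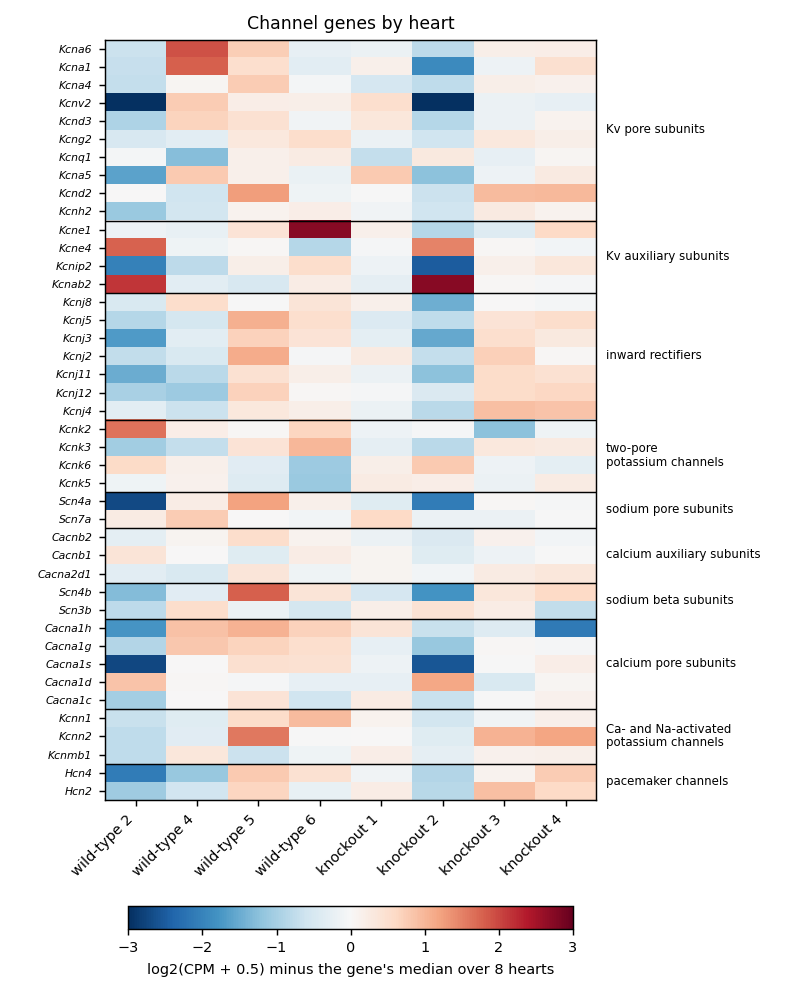
Log2(CPM + 0.5) minus the gene's median over 8 hearts for the 42 tested channel genes named by rule, by class (blue below, red above the median). The columns of wild-type 2 and knockout 2 are mostly blue, with median deviations over all 68 tested members of -0.76 and -0.67, and wild-type 6 has its strongest red cell at Kcne1.

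Knockout 1 and wild-type 4 were the 2 highest hearts for 8 tested members (11.8%), a share near the 10.6% of all genes tested. Kcna5 was among them, at 66.6 and 67.3 CPM there and 12.4 to 46.4 CPM in the others.

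No gene that works with these channels passed the test either, in 3 lists chosen with the channel genes. Of 41 listed channel partners, 33 were tested and 0 passed the threshold in edgeR's test, in either direction, with 0 at an unadjusted p under 0.05 and a median log2 fold change of -0.01. Abcc9, the sulfonylurea receptor that pairs with Kcnj8, was at 223 ± 194 CPM in wild-type and 233 ± 117 CPM in knockout hearts (SD, n = 4 each). Fgf13, which binds sodium channel tails, gave 0.52 (SE 0.44). Of 28 transcription factors known to control channel genes, 23 were tested, and 0 passed, with a median of 0.16; Irx5, a repressor of Kcnd2, gave 0.73 (SE 0.59) and Klf15, a regulator of Kcnip2, gave 0.19 (SE 0.56). Of 35 gap junction, exchanger and pump genes, 31 were tested and 0 passed, with a median of -0.02, and Gja1, the main ventricular connexin, gave -0.02 (SE 0.34). The medians lay close to that of all genes tested (-0.02), apart from that of the transcription factors. Of these factors, 18 of 23 were positive without passing the test, against 6046 of all 12826 genes tested. Their signs come from the same hearts and are not independent, so they are not read as a shift of the list.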

How the data were processed

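RNA of 8 mouse hearts was sequenced. TRIzol extracts were enriched for polyadenylated RNA, made into strand-specific dUTP libraries and sequenced from both ends on DNBSEQ, per the labels' protocols; a protocol paragraph names rat tissue although the organism given is mouse. HISAT, Bowtie2 and the build GRCm39 are named, without roles, per the submitters' processing notes; the counting step was not given in the sources used here. In all, the authors deposited 1 table with, per the file headers, estimated counts, TPM and FPKM for each heart; 8 empty per-sample columns were not used.

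Estimated counts were rounded and tested with edgeR 4.0.16 in R 4.3.3 (TMM scaling, robust quasi-likelihood F-test, filterByExpr with minimum count 10 and total 15). P-values were adjusted by Benjamini-Hochberg over 12826 genes, with 0.05 as the threshold. Each standard error was obtained from the log2 fold change and its F statistic. The biological coefficient of variation was 43.7%. The code was tested on simulated data. Levels are the TPM deposited by the authors; their FPKM served as an alternative. DESeq2 1.42.0, other scalings and filters, a replicate block and omitted libraries were the alternatives. Nothing says that the hearts came from separate litters or batches, so each p-value reflects only how these hearts varied. The members, lists and classes were chosen with earlier results of these data known. Named genes were 33 cardiac channel genes, members with an unadjusted p under 0.05 or groups that did not overlap at a mean of at least 0.5 CPM, the 3 highest per class and the 5 largest log2 fold changes each way; others were chosen after their values were seen. Some of the genes counted among the members are not reported here by name. Promoter windows came from RefSeq, and the window positions printed are on GRCm38.p6, not on the build GRCm39 named for the data. Coordinates of whole genes are not printed because the builds differ.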

Additional observations from a re-analysis of the deposited data

Results flagged for a closer look

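In 10 of 84 groups of 4 hearts, 1 heart lay far from the nearest of the others for a channel gene named above. For independent, normally distributed values, chance would flag about 1 in 20 groups. These genes vary together across the same hearts, and some were named for large fold changes. No excess over chance is therefore read from this count. Wild-type 2 and knockout 2 accounted for 5 of the 10: Kcnab2 at 19.9 CPM in wild-type 2 and 30.5 CPM in knockout 2, Kcne4 at 14.8 CPM and 12.1 CPM, and Kcnmb1 at 2.63 CPM in knockout 2, below 3.62 to 3.80 CPM in the other knockout hearts. Kcne1 was at 19.0 CPM in wild-type 6 and Kcnn2 at 23.0 CPM in wild-type 5. Scn7a was at 36.3 CPM in knockout 1. Knockout 3 held 2 low values, Kcnk2 at 1.17 CPM and Kcnk5 at 0.979 CPM.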

How the results depend on the processing

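Channel genes past the adjusted threshold numbered 0 in every setting tried except the replicate block. The groups share only the numbers 2 and 4, which nothing ties to a litter or batch, so those 4 hearts alone set the blocked difference. The deviations from the group means correlated at 0.908 for the hearts numbered 2 and at 0.110 for those numbered 4. With the replicate block 2 channel genes passed edgeR's adjusted threshold, Hcn4 (log2 fold change 1.86, adjusted p = 0.00238) and Kcnj12 (1.15, adjusted p = 0.0103). The block leaves little from which to estimate the spread, because each heart whose number is not shared is fitted exactly. The cause was not tested. The number of channel genes with an unadjusted p under 0.05, 1 as reported, was 19 with the block, 0 scaled by library totals, 2 with no filter (more genes tested), 2 without wild-type 2 and knockout 2, 5 without wild-type 2, wild-type 6 and knockout 2, and 0 to 4 when each heart was left out in turn. These counts, and the 2 calls with the block, are not set beside the share of all genes in the same setting. They are therefore not read as particular to channel genes. The median log2 fold change over the channel genes ran from -0.17 to 0.17 over all settings, and the class shares of TPM moved by less than their spread between hearts with FPKM or with any heart left out.

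Of 42 tested named genes, 27 changed sign in at least 1 of 16 settings. None of them was past the threshold in the reported fit. With RLE scaling, the log2 fold change of opposite sign was Kcnj2 -0.003. In DESeq2, the log2 fold change of opposite sign was Kcnj2 -0.002. Scaled by library totals, 4 genes had a log2 fold change of opposite sign: Kcnj3 0.037, Kcnk3 0.019, Kcne4 0.016 and Kcng2 0.044. With the replicate block, 12 genes had a log2 fold change of opposite sign: Kcne1 0.065, Kcna4 0.009, Kcna5 -0.092, Kcnj3 0.40, Kcnj5 0.58, Kcnk3 0.62, Scn4b 0.25, Cacna1s 0.20, Kcng2 0.18, Kcnk6 -0.097, Kcnn1 0.33 and Scn4a 0.15. Without wild-type 2 and knockout 2, 5 genes had a log2 fold change of opposite sign: Kcnq1 -0.12, Cacna1d -0.15, Cacnb1 0.013, Kcne4 0.26 and Scn3b -0.11. Without wild-type 2, wild-type 6 and knockout 2, 11 genes had a log2 fold change of opposite sign: Kcne1 0.06, Kcna5 -0.16, Kcnj2 -0.17, Kcnk3 0.17, Kcnn2 -0.10, Cacna1c -0.093, Cacna1d -0.23, Cacnb1 0.16, Kcne4 0.024, Kcng2 0.085 and Scn3b -0.35. When each heart was left out in turn, the log2 fold changes that crossed 0 ran over these ranges: Kcnq1 -0.22 to 0.18, Kcnd2 -0.068 to 0.71, Kcnd3 -0.48 to 0.014, Kcnip2 -0.28 to 0.38, Kcna4 -0.69 to 0.012, Kcna5 -0.27 to 0.48, Kcnv2 -0.72 to 0.09, Kcnj2 -0.24 to 0.56, Kcnj3 -0.39 to 0.23, Kcnj5 -0.46 to 0.22, Kcnk3 -0.44 to 0.23, Kcnn2 -0.082 to 1.0, Scn4b -1.0 to 0.18, Scn7a -0.40 to 0.04, Cacna1c -0.033 to 0.43, Cacna1d -0.50 to 0.42, Hcn4 -0.16 to 0.72, Cacna1s -0.66 to 0.061, Kcnab2 -1.0 to 1.54, Kcne4 -0.66 to 0.88, Kcng2 -0.25 to 0.068 and Kcnk6 -0.028 to 0.56. Levels below about 1 CPM, such as that of Kcna4 in some hearts, rest on few reads.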
